A study of Equus caballus with 3 samples.

Results

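IFITM5-positive PB-derived MSCs are described here, the equine mesenchymal stromal cells (MSCs) grown from peripheral blood (PB) in which at least 2 transcripts of *IFITM5* were counted. They numbered 244 of the 5318 kept PB-derived MSCs, or 4.59% (exact Clopper-Pearson 95% interval 4.04 to 5.19%), and were taken from 16301 kept cells in all. The limit is a counting rule, so cells of a similar *IFITM5* level can fall on either side of it. The study profiled MSCs of matched origin, grown from fat (adipose tissue, AT), from bone marrow (BM) and from PB of a single healthy 10-year-old Warmblood mare by single-cell RNA sequencing, after 2 passages in culture and without any treatment. Droplet capture tagged each transcript by cell and by molecule, and the molecular tags (unique molecular identifiers, UMIs) counted per gene and cell are the measurement. Each source had 1 library, so a difference between sources cannot be told apart from a difference between libraries, and the groups within PB are cells of a single culture of a single animal. Groups follow the sample titles, since every sample has blood mononuclear cells as its source name.

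*IFITM5*, also called BRIL, encodes a small membrane protein that, unlike the antiviral proteins of the same family, is made mainly by osteoblasts at the time they lay down mineral, and a recurrent mutation of it causes a form of osteogenesis imperfecta. Osteoblasts arise from mesenchymal progenitors under the transcription factors RUNX2 and SP7, first secrete a matrix of type I collagen, then produce the phosphatase ALPL that frees phosphate for mineral, and later matrix proteins such as osteopontin (SPP1) and bone sialoprotein (IBSP). MSCs are routinely defined by their capacity to enter this lineage when it is induced. The question put to the data was whether other bone-forming genes were higher in the cells that carried *IFITM5*.

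Cells were kept if they had between 2500 and 15000 UMIs of which no more than 3% were mitochondrial. This left 5403 cells from AT, 5580 from BM and 5318 from PB, with a median of 7291, 6874.5 and 7750 UMIs per cell, in that order. Barcodes were shared between libraries. All 5318 kept PB barcodes, the 244 IFITM5-positive ones included, were also present in the AT matrix, where nearly all of them lay under the UMI limit, and 37 were kept in both. With BM, 38 kept PB barcodes were kept in both. Of the 244, 1 was kept in AT and 2 in BM, which leaves 241 without PB cells whose barcode was kept elsewhere. Under the barcodes of the IFITM5-positive PB cells, *IFITM5* was found in the AT matrix for 61 of 244 (25%), against 1.57% for the PB cells without an *IFITM5* UMI.

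*IFITM5*, on chromosome 12 of EquCab3.0, had 1461 UMIs in the kept PB-derived MSCs, 541 in BM and 499 in AT. On the CPM scale, on which the summed UMIs of the cells are set to a common total, its level was 35.1 CPM in PB (exact Poisson 95% interval 33.3 to 36.9), 13.4 CPM in BM (12.3 to 14.6) and 12.5 CPM in AT (11.4 to 13.6). PB was the highest of the 3 libraries, and the intervals of BM and AT overlapped. These intervals, and those given throughout, cover counting error only. At least 1 UMI was found in 16.1% of PB-, 6.24% of BM- and 7.29% of AT-derived MSCs, and at least 2 in 4.59%, 1.65% and 1.13%. After each cell was thinned to 2500 UMIs, cells with at least 1 UMI made up 6.81% of PB, 3.05% of BM and 2.96% of AT. The cultures offered no cell type known to lack *IFITM5*, and the background from free RNA therefore has no measured value here.

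**Figure D1:**
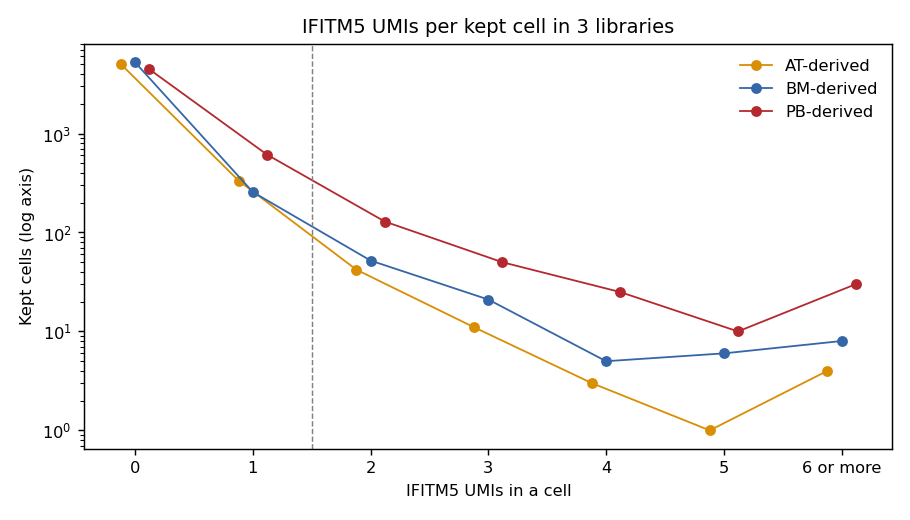
Number of kept cells (log axis) by the number of IFITM5 UMIs counted in the cell, in the AT-, BM- and PB-derived MSCs. The dashed line marks the limit of 2 UMIs, and 30 PB-, 8 BM- and 4 AT-derived cells held 6 or more.

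The rule left 129 PB cells with 2 *IFITM5* UMIs just inside the limit and 612 with 1 UMI just outside it, 75 cells with 3 or 4 and 40 with 5 or more, up to 43 UMIs in a cell. Within the 244 cells *IFITM5* ranged from 136 to 3038 CPM with a median of 328 CPM, and these cells carried 58.1% of the *IFITM5* UMIs of the kept PB cells. These values chose the cells and are not a result. Depth was similar in both groups, as the IFITM5-positive cells had a median of 7820.5 UMIs and 2190.5 genes against 7724.5 and 2172 in the 4462 PB cells without an *IFITM5* UMI, called IFITM5-none here. The mitochondrial share was 1.54% against 1.55%. With an equal *IFITM5* level in all kept cells, counting alone would give 179.5 PB cells with 2 or more UMIs, against 244 found. The same calculation gives 27.1 cells in BM, against 92 found, and 23.957 in AT, against 61 found. The level used includes the UMIs of the IFITM5-positive cells themselves, which raises the numbers so expected. The variance of *IFITM5* UMIs per kept PB cell was 4.16 times their mean, above what counting from an equal level gives. How many of the 244 reached the limit by sampling was not tested, and IFITM5-none cells are not known to lack *IFITM5*.

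Of the markers named for these cells, *IFITM5* chose them, so only *ALPL* was compared. *ALPL*, tissue-nonspecific alkaline phosphatase, was at 463 CPM in IFITM5-positive cells and 310.3 CPM in IFITM5-none cells, a fold of 1.49 (exact conditional 95% interval 1.39 to 1.60). It was detected in 87.3% against 74.8% of cells, and at 2500 UMIs per cell in 58.2% against 47.3%. At full depth *ALPL* was therefore found in most PB-derived MSCs of either group. By *IFITM5* UMIs in the cell, *ALPL* was at 310.3 CPM with none, 379 with 1, 380.4 with 2, 526 with 3 or 4 and 612 with 5 or more, the last with an interval of 529 to 705 CPM. 

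Across genes, the difference was measured as log2(CPM + 10) in the IFITM5-positive minus the IFITM5-none cells for 6302 genes whose mean over both groups was at least 10 CPM. *IFITM5* itself was left out. A gene was counted as higher or lower when this difference reached 2-fold. Folds printed for single genes are ratios of CPM without the added 10, so they lie further from 1 than the fold by which genes were counted, most of all for scarce genes. With 1 library there is no replicate and no test was run, and the counts describe these cells. By this measure 17 genes were higher (0.27% of those tested) and 38 lower (0.603%). At 1.5-fold, 77 were higher (1.22%) and 118 lower (1.87%). Over all genes the median difference was -0.02, with 5th and 95th percentiles of -0.38 and 0.34, so most transcripts were at nearly equal levels. Of the 17, 9 had under 10 CPM in IFITM5-none cells and entered through the IFITM5-positive cells alone, as did 20 of the 38 in the other direction, so that such genes had to differ to be counted. Without the PB cells whose barcode was kept elsewhere 17 were higher and 38 lower, sharing all 17 and 37 of the 38.

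**Figure D2:**
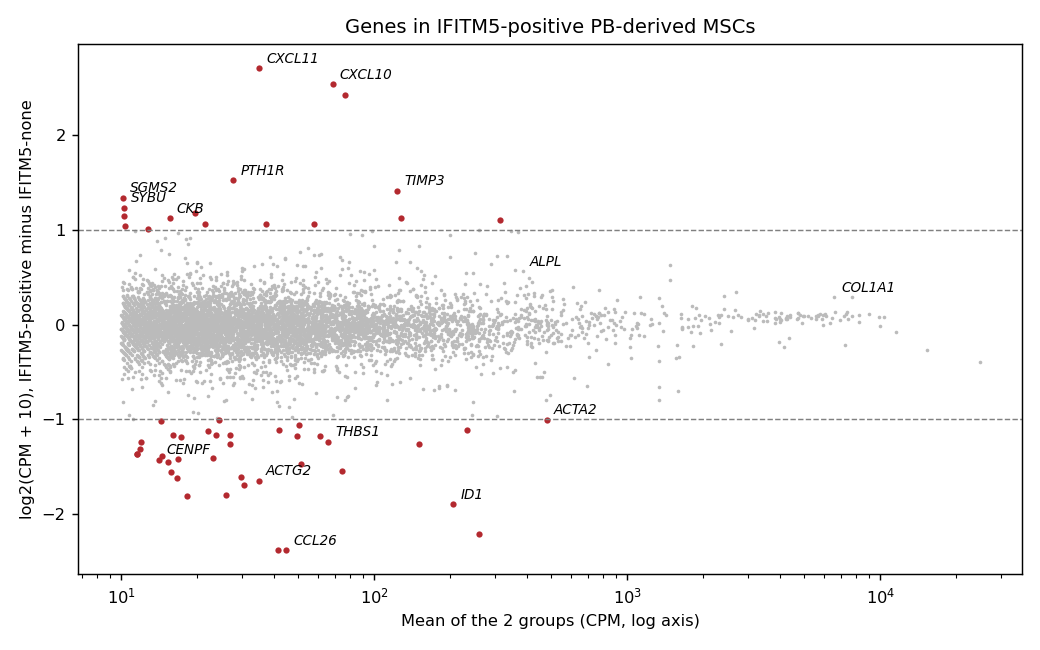
Difference of log2(CPM + 10) between 244 IFITM5-positive and 4462 IFITM5-none PB-derived MSCs (vertical axis) against the mean level of the 2 groups in CPM (log axis), for 6302 genes. Dashed lines mark 2-fold, the 55 genes past them are red, and IFITM5 itself is not drawn. PTH1R and TIMP3 lie above the upper line and ID1 and CCL26 below the lower one.

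Several other bone-forming genes were higher with *IFITM5*, though few of them by 2-fold with the added 10 CPM. Of the 26 genes of an osteoblast list 23 were in the matrix and 13 reached the filter. In these, 1 was at least 2-fold higher by that measure and 6 at least 1.5-fold higher, against 0.27% and 1.22% of all genes. None was 1.5-fold lower. The difference was above 0 in 12 of the 13, and their median was 0.56 against -0.02 for all genes. Of the 13, 4 (*PTH1R*, *SPP1*, *DLX3* and *CADM1*) had under 10 CPM in IFITM5-none cells and passed only through the IFITM5-positive cells, so they had to be higher, and they are the gene at 2-fold and 4 of the 6 at 1.5-fold. Of the other 9, 0 were at 2-fold and 2 at 1.5-fold, 8 were above 0 and the median was 0.29, and with a filter of 50 CPM 0 and 1 of 6 were. The summed level of the list, which the type I collagens dominate, was 1.22-fold higher (1.21 to 1.23).

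*PTH1R*, the receptor through which parathyroid hormone acts on osteoblasts, had the largest difference of the list among genes past the filter. It was at 45.9 CPM in IFITM5-positive and 9.46 CPM in IFITM5-none cells, 4.85-fold (3.80 to 6.14), and was found in 27.5% against 6.30% of cells. Its level was 20.5 CPM in cells with 1 *IFITM5* UMI, 34.0 CPM with 2, 42.1 CPM with 3 or 4 and 92.5 CPM with 5 or more. No cell held more than 4 of its 90 UMIs, so the difference was spread over many cells. 

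Late matrix and mineral genes were higher but scarce. *SPP1*, osteopontin, was at 27.5 against 9.95 CPM, 2.77-fold (2.04 to 3.69). By *IFITM5* UMIs it was at 9.95, 10.7 and 13.6 CPM with 0, 1 and 2, and at 37.2 and 54.2 CPM with 3 or 4 and with 5 or more. *SPP1* was found in 9.43% of IFITM5-positive and 6.72% of IFITM5-none cells, and 11 of its 54 UMIs lay in 1 cell, without which it was 2.21-fold higher. *IBSP*, bone sialoprotein, had 22 UMIs in 7 IFITM5-positive cells and 2 UMIs in 1 of the 4462 IFITM5-none cells, a ratio of 195 with a counting interval of 47.9 to 1711. Of the 22 UMIs, 8 lay in 1 cell, without which the ratio was 125, and by class 11 were in cells with 2 *IFITM5* UMIs, 0 in those with 3 or 4 and 11 in those with 5 or more. *IBSP* stayed under the filter, and all 7 of its cells had *ALPL* and 6 had *SP7*. *SMPD3*, a sphingomyelinase needed for mineralization, had 10 UMIs in 7 cells against 1 UMI, a ratio of 177 (25.2 to 7693). *PHOSPHO1*, a phosphatase of matrix vesicles, had 17 UMIs in 16 cells against 47, or 6.41-fold (3.45 to 11.4). *PHEX*, a peptidase of mature osteoblasts, had 3 UMIs against 2.

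**Figure D3:**
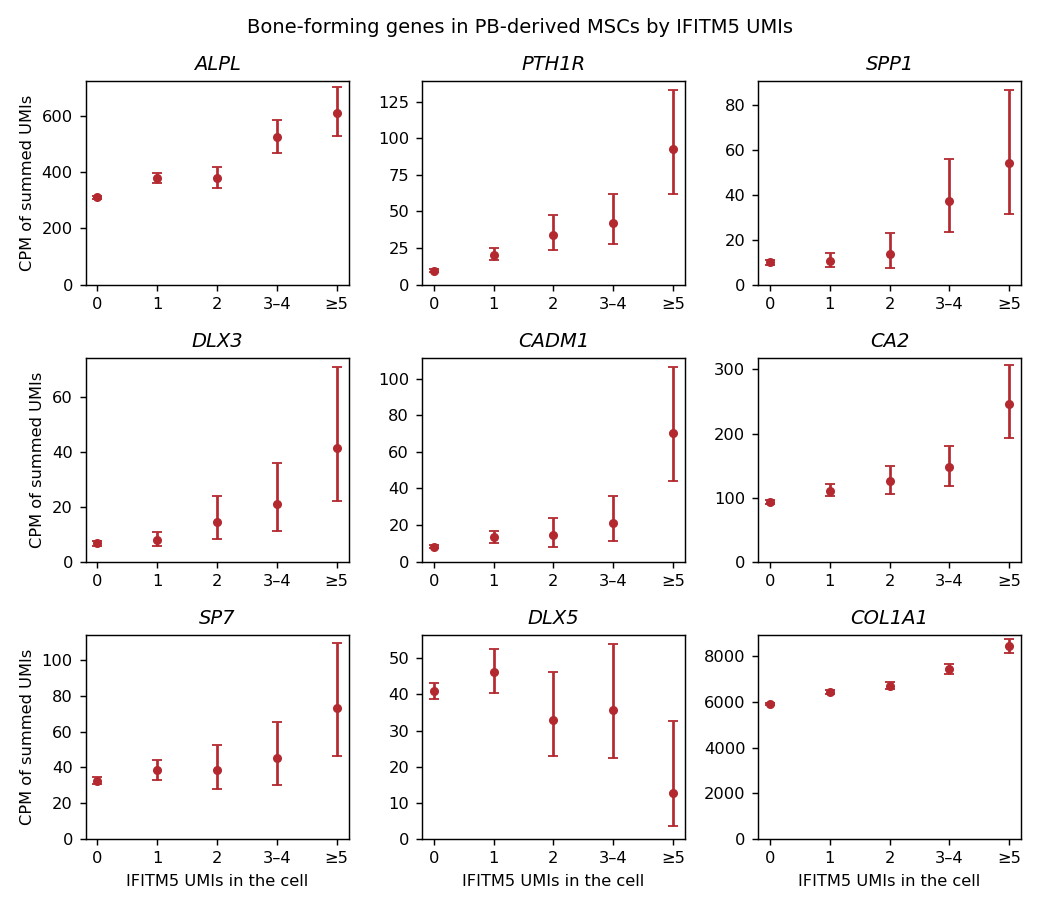
Levels of 9 bone-forming genes (CPM of the summed UMIs, axes from 0) in PB-derived MSCs with 0, 1, 2, 3 to 4 and 5 or more IFITM5 UMIs. Bars are exact Poisson 95% intervals, and ALPL runs from 310.3 to 612 CPM and PTH1R from 9.46 to 92.5 CPM, while DLX5 is lowest (12.8 CPM) in the last class.

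The transcription factors of the lineage were not all higher. *DLX3*, a homeobox factor of bone and teeth, was 3.11-fold higher (2.17 to 4.34), at 20.9 against 6.73 CPM. *SP7*, osterix, was 1.42-fold higher (1.14 to 1.76), at 46.4 against 32.6 CPM and at 73.3 CPM in cells with 5 or more *IFITM5* UMIs. *RUNX2*, the factor that starts the program, was at 10.7 against 8.19 CPM, with an interval of 0.796 to 2.04 that covers 1. *DLX5* was lower, at 30.6 against 40.9 CPM or 0.748-fold (0.568 to 0.969), and at 12.8 CPM in cells with 5 or more *IFITM5* UMIs. *DLX6*, *MSX2*, *BMP4*, *BMP2* and *VDR* had intervals that cover 1.

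The matrix itself differed little. *COL1A1* and *COL1A2*, the chains of type I collagen, were 1.22-fold (1.20 to 1.24) and 1.23-fold (1.21 to 1.25) higher, and *SPARC*, osteonectin, was 1.11-fold higher (1.08 to 1.14). *COL1A1* was at 5912 CPM in IFITM5-none cells and 8458 CPM in cells with 5 or more *IFITM5* UMIs. *CA2*, a carbonic anhydrase, was 1.64-fold higher (1.45 to 1.84), and the adhesion molecule *CADM1* 3.12-fold (2.26 to 4.23). The wider list of osteogenesis imperfecta and collagen-processing genes, 26 of which reached the filter, held none at 1.5-fold in either direction and had a median of 0.02. Among osteocyte genes, *SOST*, *MEPE* and *FGF23* had no UMI in either group. Given a floor of 3 UMIs, a level of up to 1.53 CPM in the IFITM5-positive cells would go unseen. *DMP1* had 0 UMIs against 1. 

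Few single cells held UMIs of several of these genes. Out of 6 genes, *PTH1R*, *SPP1*, *IBSP*, *PHOSPHO1*, *SMPD3* and *DLX3*, none was found in 53.7% of the IFITM5-positive and 82.7% of the IFITM5-none cells. At least 1 UMI of exactly 1 of them was found in 34.0% against 16.0%, and of exactly 2 in 9.02% against 1.19%. The highest number was 5 genes, in 1 IFITM5-positive cell. The 6 genes were chosen after their values were seen. 

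Beyond the osteoblast list, the genes higher in IFITM5-positive cells by 2-fold were a mixed set. *TIMP3*, an inhibitor of matrix metalloproteinases, was at 184 against 63.0 CPM, 2.92-fold (2.61 to 3.27). Its level was 91.7 CPM in cells with 1 *IFITM5* UMI, 119 CPM with 2, 262 CPM with 3 or 4 and 242 CPM with 5 or more, the last pair with overlapping intervals. A single cell with 4 *IFITM5* UMIs, described next, held 30 of its 361 UMIs, and without it *TIMP3* was 2.69-fold higher and at 217 CPM in cells with 3 or 4. *SGMS2*, sphingomyelin synthase, in which mutations cause skeletal fragility, was at 18.9 against 1.44 CPM, or 13.1-fold (8.34 to 20.5), and was found in 9.02% against 1.08% of cells. *SYBU*, which links cargo to microtubule motors, was 8.86-fold higher (5.77 to 13.4) and *MAMDC2* 6.89-fold (4.53 to 10.3). *CKB*, the brain-type creatine kinase, was 4.10-fold higher (2.94 to 5.61), *CDC42EP3*, an effector of the GTPase CDC42, 3.82-fold (2.85 to 5.05) and *RERG* 5.20-fold (3.44 to 7.67). From *SGMS2* to *RERG*, all these genes were under 10 CPM in IFITM5-none cells and had to be higher to be counted. *S100A1*, a calcium-binding protein, was at 432 against 196 CPM and was found in 89.8% against 66.1% of cells, the broadest of the set. *ACSF2* was 2.42-fold higher (2.04 to 2.85). *MTSS1* and *LBH*, next in rank among genes with a symbol with differences of 0.99 each, were just short of the limit. The transcript ENSECAG00000005938, on chromosome 5, was 7.90-fold higher (6.81 to 9.14) and ENSECAG00000040634, on chromosome 13, 2.34-fold (2.08 to 2.61), both without a symbol in the matrix.

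The 2 genes with the largest differences rested on a single cell. *CXCL11* and *CXCL10*, chemokines induced by interferon, were at 68.3 against 2.01 CPM and at 124 against 13.1 CPM. In an IFITM5-positive cell with 4 *IFITM5* UMIs lay 134 of the 134 *CXCL11* and 228 of the 243 *CXCL10* UMIs, together with 351 *CCL2*, 94 *CCL7*, 27 *VCAM1* and 19 *UBD* UMIs. Without this cell *CXCL10* was at 7.69 CPM and 0.588-fold, and *CXCL11* had no UMI. *C1H15orf48* had 30 of its 40 UMIs there as well, and its difference without the cell was 0.003. Without this cell 12 genes were 2-fold higher, all of which were among the 17. Besides these 3 genes, ENSECAG00000040634 was then at 0.99 and *SGMS2* no longer reached the filter. The 612 cells with 1 *IFITM5* UMI, which belong to neither group, had *CXCL10* at 102 CPM (93.2 to 111) and *CXCL11* at 50.7 CPM (44.6 to 57.4). Over how many of those cells these UMIs were spread was not counted.

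The genes lower in IFITM5-positive cells included many of the cell cycle. Of the 9 genes of a G2/M list past the filter 8 were at least 2-fold and 9 at least 1.5-fold lower, against 0.603% and 1.87% of all genes, and the median difference was -1.37. In IFITM5-positive cells 7 of the 9 were under 10 CPM, all of them among the 8, and they reached the filter only through the IFITM5-none cells, so they had to be lower to be counted. Summed over the list, the level was 216 against 590.0 CPM, 0.365-fold (0.331 to 0.402). *TOP2A*, which untangles sister chromatids, had 2.04 against 21.1 CPM, and *CDC20*, an activator of the anaphase complex, 2.04 against 21.0 CPM. *ANLN*, *BIRC5*, *NUSAP1* and *CENPF*, all of mitosis or cytokinesis, were between 0.0754- and 0.176-fold. Of 6 S-phase genes past the filter, 5 were at least 1.5-fold lower and 0 at 2-fold, and the list summed to 0.499-fold (0.445 to 0.558). Of these 6, 2 were under 10 CPM in IFITM5-positive cells.

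Smooth muscle genes were also lower, as were *THBS1* and some chemokines. Of 11 smooth muscle genes past the filter, 11 were below 0 and 3 at least 2-fold lower, where 0.603% of all genes were, with a median of -0.56. *ACTA2*, smooth muscle actin, was at 316 against 643 CPM (0.491-fold, 0.453 to 0.532), just past the limit, and at 519 CPM in cells with 1 *IFITM5* UMI and 179 CPM in those with 5 or more. *ACTG2* was 0.202-fold (0.128 to 0.304) and *CNN1*, calponin, 0.356-fold (0.229 to 0.528). *THBS1*, thrombospondin, was 0.365-fold (0.283 to 0.463). *THBS1* was named after its values were seen. Among chemokines *CCL26* was at 7.64 against 81.7 CPM (0.0935-fold, 0.0523 to 0.155) and *CXCL6*, which attracts neutrophils, at 3.06 against 30.0 CPM (0.102-fold, 0.0373 to 0.222). Both were under 10 CPM in IFITM5-positive cells. At least 2 *CXCL6* UMIs were held by 1 of 244 IFITM5-positive cells (0.41%) and 69 of 4462 IFITM5-none cells (1.55%), up to 79 in 1 cell. The fold of *CXCL6* thus rests on few cells. Of the 6 chemokine genes past the filter *CXCL10* and *CCL7* were above 0. Without the cell rich in *CXCL10* all 6 were below 0, *CCL2* was 0.276-fold and the summed list 0.277-fold in place of 0.682-fold.

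The ID genes, targets of bone morphogenetic protein (BMP) signalling, were lower as well. *ID1*, an inhibitor of differentiation that BMP induces, was at 81.0 against 329 CPM, 0.246-fold (0.209 to 0.288), *ID3* at 0.445-fold (0.394 to 0.501) and *ID2* at 0.487-fold (0.364 to 0.640). Of the 8 BMP pathway genes past the filter, 2 were at least 2-fold lower (0.603% of all genes), 6 were below 0, and 2 above. *ID1* was at 164 CPM in cells with 1 *IFITM5* UMI, 115 CPM with 2, 38.8 CPM with 3 or 4 (24.9 to 57.8) and 51.0 CPM with 5 or more (29.2 to 82.8), the last pair with overlapping intervals. Among the 11 WNT pathway genes past the filter none reached 2-fold with the added 10 CPM and 2 were at least 1.5-fold higher (1.22% of all genes), namely *TCF7*, a factor that acts with β-catenin (difference of 0.95, or 2.12-fold without the added 10, 1.83 to 2.45), and *CTNNB1*, β-catenin itself (1.71-fold, 1.46 to 1.99).

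The cell cycle moved with the comparison, so it was repeated among the PB cells whose share of UMIs on the S-phase and G2/M genes was at or under the median, 151 IFITM5-positive cells among them. Then 16 genes were higher (0.258% of 6205) and 7 lower (0.113%), sharing 12 of the 17 and 6 of the 38. The 12 included *CXCL10* (3.55), *CXCL11* (3.45) and *C1H15orf48* (1.43), which in the full comparison were called only through the cell rich in *CXCL10*. *PTH1R* (difference of 1.34), *TIMP3* (1.36) and *SGMS2* (1.55) were still past 2-fold, as were *ID1* (-1.41), *CCL26*, *CXCL6* and *THBS1* (-1.14) in the other direction. *ACTA2* (-0.92), *ACTG2* (-0.79) and *ID3* (-0.64, from -1.12) were not, so that 0 of 11 smooth muscle and 1 of 9 BMP pathway genes were 2-fold lower. The median of the smooth muscle genes was nearly the same, at -0.55 against -0.56. Of 13 osteoblast genes 2 were then 2-fold higher, with a median of 0.44. These can include genes that passed the filter only through the IFITM5-positive cells and had to be higher, which were not counted separately in this subset.

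The summed levels of haematopoietic, endothelial, cartilage, adipocyte and pericyte genes had ratios whose intervals cover 1. The summed level of tendon genes, most of it *TNC*, was lower. Of 17 haematopoietic genes in the matrix none reached the filter, their summed level was 16.8 against 14.2 CPM, and *PTPRC*, *CD14*, *CD163*, *LYZ*, *CD3E*, *ITGB2*, *CSF1R* and *SPI1* had no UMI in these cells. Endothelial genes summed to 6.63 against 4.89 CPM. The summed level of cartilage genes was 19.4 against 14.4 CPM (1.34-fold, 0.938 to 1.87), with *COL2A1* and *COL10A1* at 0, and that of adipocyte genes was 1.08-fold (0.958 to 1.21), with *ADIPOQ* and *LPL* at 0. Pericyte genes were 1.15-fold (0.962 to 1.37), stromal surface genes 1.05-fold and interferon-response genes 1.12-fold. In the cell rich in *CXCL10* lay 119 of the 851 UMIs of the interferon-response list, which was 0.971-fold (0.900 to 1.05) without it, and 7 of the 33 haematopoietic UMIs, a list then at 0.940-fold (0.608 to 1.39). That cell also held 190 of the 5524 UMIs of the stromal surface list, then at 1.02-fold (0.993 to 1.05). Tendon genes summed to 0.732-fold (0.649 to 0.822), and 156 of their 296 UMIs in IFITM5-positive cells were of *TNC*, at 0.546-fold. Of the 2 tendon genes past the filter 1 was above 0. Retinoic acid genes summed to 0.793-fold (0.749 to 0.840), with 716 of 1227 UMIs in IFITM5-positive cells from *CRABP2*. Of the 5 past the filter 2 were above 0 and 3 below, with 0 at 1.5-fold in either direction. Chaperones of the endoplasmic reticulum were 0.888-fold.

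**Figure D4:**
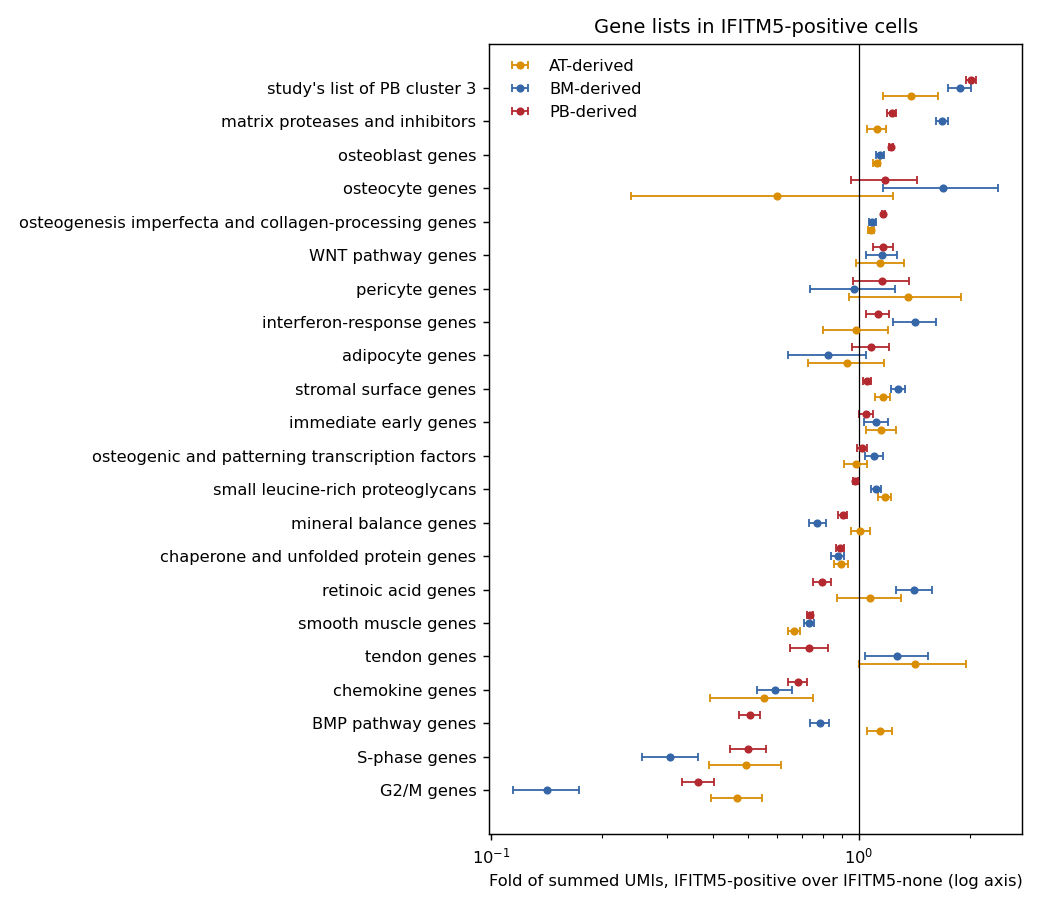
Fold of the summed UMIs of each gene list (log axis), IFITM5-positive over IFITM5-none cells, in the AT-, BM- and PB-derived MSCs, with exact conditional 95% counting intervals. G2/M genes are 0.365-fold in PB, 0.142-fold in BM and 0.467-fold in AT.

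One of the PB clusters of the original work was described by *IFITM5* and a list of further genes, drawn from these same cells, so the direction of the list here is no independent evidence. The 13 genes of the list other than *IFITM5* were all above 0 in IFITM5-positive cells, 5 by at least 2-fold and 11 by at least 1.5-fold, where 0.27% and 1.22% of all genes were. *LRRC17*, a secreted protein of osteoblasts that restrains osteoclasts, was 2.01-fold higher (1.88 to 2.14) and *CH25H*, cholesterol 25-hydroxylase, 1.90-fold (1.57 to 2.28). 

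The same rule selected 92 BM- and 61 AT-derived MSCs. In BM several bone-forming genes were higher with *IFITM5* too. Of 13 osteoblast genes past the filter, 1 with under 10 CPM in IFITM5-none cells, 5 were at least 2-fold higher and 8 at least 1.5-fold, where 1.01% and 5.17% of the 6813 genes tested in BM were, and none was 1.5-fold lower, with a median of 0.80. *SPP1* was at 139 against 13.3 CPM in BM, 10.5-fold (8.24 to 13.2), and *IBSP* at 109 against 29.7 CPM, 3.66-fold (2.82 to 4.68). *ALPL* was at 227 against 90.4 CPM, 2.52-fold (2.11 to 2.98), and *RUNX2* 3.15-fold (1.33 to 6.35) from 8 UMIs. *SP7* was 2.07-fold (1.38 to 3.00) and *CA2* 2.26-fold (1.78 to 2.82). 

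Some genes higher in PB were not higher in BM. *LRRC17* and *TCF7* were at 0.891-fold (0.727 to 1.08) and 0.838-fold (0.360 to 1.66) in BM, and *MAMDC2* had 0 UMIs against 149, which allows up to 1.52-fold. *PTH1R* had 0 UMIs against 27, where an equal level would give 0.446 UMIs in the 92 cells, so BM shows nothing of its difference. *TIMP3* (2.73-fold, 2.36 to 3.15), *S100A1* (3.34-fold, 2.94 to 3.79) and ENSECAG00000005938 (8.78-fold, 5.73 to 13.0) were higher in BM as in PB. The difference between the sources was not tested, having 1 library each. 

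**Figure D5:**
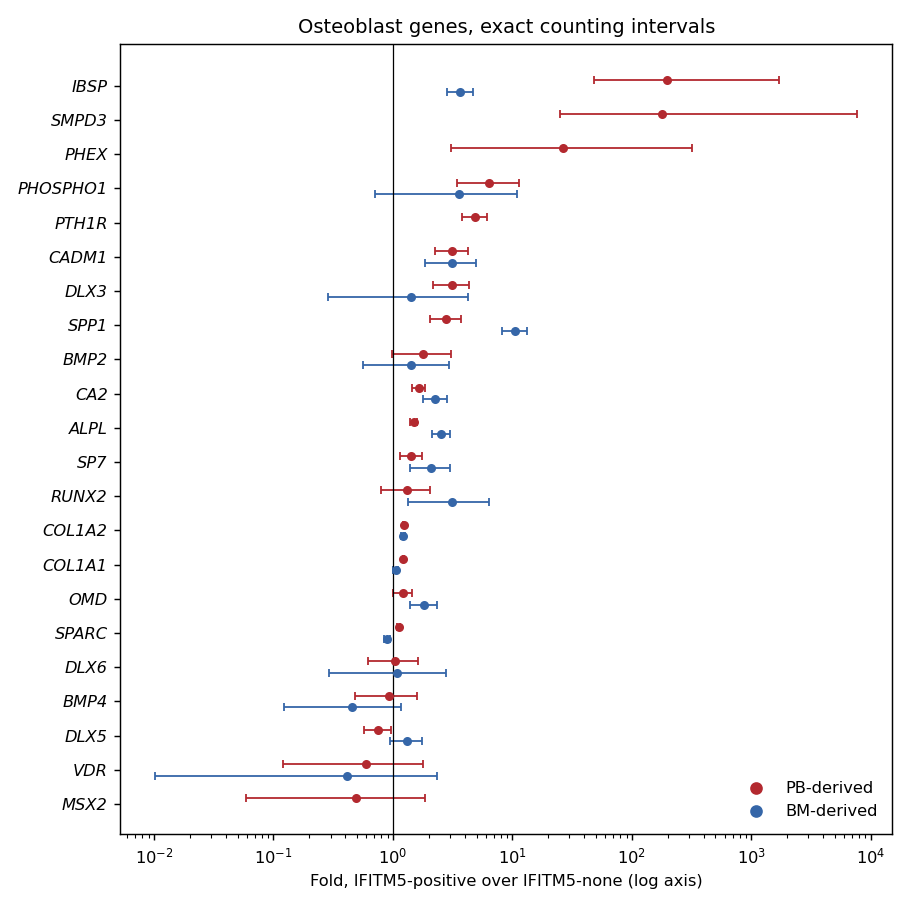
Fold (log axis) of the osteoblast genes reported here, IFITM5-positive over IFITM5-none cells, in PB- and BM-derived MSCs, with exact conditional 95% counting intervals. Only genes with UMIs in both groups are drawn, and SPP1 is 2.77-fold in PB and 10.5-fold in BM.

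In AT the bone-forming genes were scarce. *ALPL* had 1 UMI in the 61 IFITM5-positive cells and 111 in the IFITM5-none cells, *SPP1* had 0 and 25, and *PTH1R* 0 and 5, while no *IBSP* UMI was counted, too few to compare the groups. Only 3 osteoblast genes reached the filter, the type I collagens and *SPARC*, and none of them was 1.5-fold higher, where 2.11% of all genes were. *S100A1* was at 165 against 80.7 CPM, 2.04-fold (1.62 to 2.54). The genes lower in PB were mostly lower in the other sources as well. Of the 38, 38 were below 0 in BM, 36 by at least 1.5-fold where 9.39% of all genes were, and of the 37 past the filter in AT 34 were below 0, 27 by at least 1.5-fold where 5.02% were. Genes under 10 CPM in the IFITM5-positive cells of these libraries had to be lower to be counted, such as *CDC20* and *CENPF* with 0 UMIs in BM. Such genes were not counted apart. Many of the 38 are genes of the cell cycle, and 6 of the 38 stayed 2-fold lower in PB cells low in cycle genes. That repeat was not run in BM or AT, where the G2/M list summed to 0.142-fold and 0.467-fold. *ID1* was 0.543-fold (0.484 to 0.608) in BM and 1.11-fold (0.979 to 1.25) in AT, and *ID3* was 1.24-fold (1.10 to 1.40) in AT. Of the 17 genes higher in PB, 8 reached the filter in BM, 8 of these were above 0 and 5 at least 1.5-fold, where 5.17% of all genes were. Among these 8, *SGMS2* and ENSECAG00000005938 were under 10 CPM in the IFITM5-none BM cells and had to be higher. In AT 4 reached the filter, 3 were above 0 and 1 at least 1.5-fold, where 2.11% of all genes were.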

How the data were processed

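Single-cell RNA sequencing was run on cultures from the 3 sources, each as 1 library. The authors used Cell Ranger for barcodes and mapping (EquCab3.0) and ESAT for UMIs per gene. The deposited values are raw UMI counts. Whether reads of close copies of the *IFITM* family can be counted for one another was not tested. The UMI and mitochondrial limits of the methods were applied, and the kept cells held 39980656 (AT), 40239295 (BM) and 41622445 (PB) UMIs in total. The multiplet caller of the methods was not run, so doublets were limited by the upper UMI bound only. Counts were summed over cells and scaled to CPM, with a pseudocount of 10 CPM for differences and a minimum mean of 10 CPM. Intervals are exact (Poisson for levels, Clopper-Pearson for shares, conditional binomial for folds, all 95%, SciPy 1.17.1). Cells are not replicates and no p-value was computed.

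The genes named are the 15 with the largest differences in each direction among genes with a symbol, up to 2 Ensembl identifiers in each direction, every detected osteoblast gene, and members of 25 lists past 2-fold or of highest count, besides those whose text says otherwise, and some that the rule names are not reported here. The cells, the lists and the alternatives were chosen with earlier results of these data known. Of 13163 identifiers without a symbol, 0 matched the reference table. The arithmetic was tested on simulated data. Alternatives were other *IFITM5* limits, references, UMI and mitochondrial limits, thinning, scalings, pseudocounts, filters and cell subsets.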

Additional observations from a re-analysis of the deposited data

Results flagged for a closer look

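Among the PB barcodes above 15000 UMIs, which the comparisons left out, 22 of 259 (8.49%) had at least 2 *IFITM5* UMIs, against 7 in AT and 2 in BM. With these deeper barcodes added, 12 genes were at least 2-fold higher and 40 lower.

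The AT barcodes under 2500 UMIs, which no comparison used, held 201 *IFITM5* UMIs, or 36.4 CPM, against 12.5 CPM in the kept AT cells and 35.1 CPM in the kept PB cells. Barcodes under the limit were higher than kept cells in the other libraries too, at 51.1 CPM in PB from 32 UMIs and at 29.5 against 13.4 CPM in BM from 21 UMIs. Under the barcodes of the 4462 IFITM5-none PB cells *IFITM5* was at 18.9 CPM in the AT matrix, and under those of the 244 IFITM5-positive cells at 372 CPM, from a median of 838 UMIs per barcode. The part of barcodes shared between libraries in this was not tested.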

How the results depend on the processing

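The number of IFITM5-positive PB cells, 244 as reported, was 115 with a limit of 3 UMIs, 856 with 1 UMI and 77 when cells were thinned to 2500 UMIs before the rule. The counts of 17 higher, 38 lower and 1 of 13 osteoblast genes became 44, 59 and 5 of 14 with 3 or more UMIs, among 6337 genes. With 1 or more they were 4, 8 and 0 of 13, among 6329 genes. With 5 or more they were 117, 164 and 9 of 19, among 6346 genes, and *DLX5* was 2-fold lower (-1.16). That alternative was chosen after seeing the data, as was leaving out single cells. Its 40 cells held 313680 UMIs in all, so scarce genes passed the filter on few UMIs and counting error was larger. With a pseudocount of 1 CPM the counts were 36, 65 and 4, and with 25 CPM 7 and 14, the osteoblast count staying at 1. A filter of 50 CPM left 6, 10 and 0. Lower genes were 21 with an upper limit of 10000 UMIs and 7 in cells low in S-phase and G2/M genes, and the osteoblast count was 2 in both, with means of single-cell CPM and with a filter of 2 CPM. Among cells low in cycle genes higher genes made up 69.6% of those called, against 30.9% as reported, and 42.7% with 3 or more UMIs. The higher genes in cells low in cycle genes included *CXCL10*, *CXCL11* and *C1H15orf48*, called as reported only through the cell rich in *CXCL10*. The median of the osteoblast genes was above 0 in all 18 alternatives with counts of genes, from 0.29 to 0.97. These medians can include genes that passed the filter only through the IFITM5-positive cells and had to be higher. As reported the median was 0.56 for 13 genes, and 0.29 for the 9 with at least 10 CPM in IFITM5-none cells.

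*CXCL10* and *CXCL11* reversed, to -0.45 and -0.35 with an upper limit of 10000 UMIs, to -1.21 and -0.26 with 5 or more UMIs, and to -0.38 and -0.26 without the cell richest in *CXCL10*, which is also the cell with most UMIs of each. That cell has 10872 UMIs and 4 *IFITM5* UMIs, so the first 2 of these settings leave it out as well. In cells low in cycle genes *UBE2C* (0.12), *PBK* (0.19), *CENPF* (0.18), *CCNB1* (0.024) and *CDC20* (0.042) reversed, a subset chosen by such genes. Other named genes kept their direction or were not called. No paired analysis was possible because each source had 1 library and no test was run. Leaving out a replicate was not possible for the same reason.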

Other observations

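Some genes under the 10 CPM filter were also concentrated in the IFITM5-positive PB cells, and they were chosen after their values were seen. They needed at least 10 UMIs in these cells and were ordered by the lower bound of their fold, so high folds were built in. *ZBTB7C* (11.4-fold, 6.18 to 20.7), *FAM110D* (10.8-fold, 4.62 to 24.2), *PDZD2* (7.60-fold, 3.52 to 15.4) and *GFRA3* (6.33-fold, 3.26 to 11.7) also ranked above *CHAD*. So did *UBD* (48.1-fold), *CD74* (27.9-fold), *VCAM1* (8.25-fold) and *GBP5* (5.91-fold). The cell rich in *CXCL10* held 19 of 19, 9 of 11, 27 of 27 and 11 of 18 of their UMIs, in that order. The genes given next are a selection from that order. *PANX3*, a channel protein of osteoblasts and hypertrophic chondrocytes, had 21 UMIs in 11 IFITM5-positive cells against 18 in all IFITM5-none cells, 20.7-fold (10.5 to 41.2). *ITGA10*, a collagen receptor of cartilage, had 22 UMIs in 21 cells against 47, 8.30-fold (4.76 to 14.0). *CHAD*, chondroadherin, was 7.09-fold (3.04 to 15.3), *COL13A1* 6.50-fold (2.94 to 13.3) and *NCAM1* 5.07-fold (2.92 to 8.42). *HBA2*, an alpha globin, had 21 UMIs in 14 cells against 60, 6.20-fold (3.58 to 10.3).

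On chromosome 12, where *IFITM5* lies, 8 of 213 tested genes (3.76%) were at least 1.5-fold higher in IFITM5-positive PB cells, against 69 of 6089 (1.13%) elsewhere. The genes with a symbol were *ACTN3*, *TP53I11* and *LRRN4CL*. Whether any of the rest shares reads with *IFITM5* was not tested.

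In BM-derived MSCs, of 12 matrix protease and inhibitor genes past the filter 4 were at least 2-fold and 6 at least 1.5-fold higher in IFITM5-positive cells, against 1.01% and 5.17% of all genes, and 2 were below 0. *MMP13*, a collagenase of mature osteoblasts and hypertrophic chondrocytes, was at 170 against 5.80 CPM, 29.3-fold (23.0 to 37.1), *MMP16* 5.61-fold (3.07 to 9.52), and *CTSK*, cathepsin K, 2.45-fold (2.27 to 2.65). *MMP13* and *MMP16* were under 10 CPM in IFITM5-none cells and had to be higher to be counted. In PB *CTSK* was 1.32-fold (1.17 to 1.48).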
